A study of Homo sapiens with 4 samples.

Results

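PRKCB lies on chromosome 16 and was taken here as the interval chr16:23840000-24235000 (hg19), with chr16:23840000-23860000 as its promoter. All anchor pairs with at least 1 paired-end tag (PET) in any of the 4 SMC1 HiChIP libraries and an anchor overlapping that interval were collected, whatever their counts in either genotype. This gave 605 of the 1125468 pairs of the whole data set, joined at 24 anchors inside the interval and 99 anchors outside it. Of the 24 anchors, 1 overlapped the promoter (chr16:23846336-23850166) and 23 lay in the gene body, and distances are given from the centre of the promoter anchor.

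PRKCB encodes protein kinase C beta, a classical protein kinase C that is activated by calcium and diacylglycerol and that phosphorylates serine and threonine residues downstream of many receptors. In Ewing sarcoma the gene is known as a target activated by EWS-FLI1, the fusion of an RNA-binding protein with an ETS transcription factor that drives the tumour. Cohesin, the ring complex that contains SMC1, extrudes chromatin loops and carries either STAG1 or STAG2 as a further subunit, and STAG2 is recurrently lost in Ewing sarcoma.

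The samples were A673 cells, an established Ewing sarcoma line. HiChIP ligates DNA ends that lie near each other in fixed nuclei and enriches those bound by a protein, here SMC1, so that a PET counts a contact of 2 anchors on cohesin-bound chromatin. There were 2 STAG2-null libraries, from A673 cells edited with Cas9 and grown as clones of single cells, and 2 wild-type libraries of A673 cells without that edit; the labels name no other treatment or time. The labels do not say that the libraries of a genotype are separate cultures or how the wild-type cells were grown, so p-values measure the spread between these libraries only, which may be technical, and effects of a clone and of STAG2 loss cannot be told apart.

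The 300 bases around the RefSeq start of PRKCB are shown because the promoter anchor is compared with the gene body. The sequence comes from the RefSeq table of build GRCh38.p14 (chr16:23835733-23836032, plus strand), a build other than that of the contacts, and runs from 250 bases before the start to 50 bases after it. Capitals mark 2 GC boxes and an octamer.
PRKCB promoter: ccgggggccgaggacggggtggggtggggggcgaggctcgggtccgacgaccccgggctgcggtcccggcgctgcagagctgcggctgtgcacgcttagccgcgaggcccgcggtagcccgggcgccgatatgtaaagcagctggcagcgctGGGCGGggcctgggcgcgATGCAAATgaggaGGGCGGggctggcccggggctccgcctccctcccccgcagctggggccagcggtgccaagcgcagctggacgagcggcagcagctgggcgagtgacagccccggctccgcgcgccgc
The window was rich in G and C, at 77.7% against a median of 58.7% over 35116 promoter windows of the same length, and held 38 CpG dinucleotides against a median of 14. The GC box GGGCGG matched at 2 places on the plus strand, and 45.0% of the promoter windows held it on either strand. The octamer ATGCAAAT matched at 1 place on the plus strand and was held by 1.77% of windows. The ETS core GGAA, searched on both strands like the other motifs, had 0 matches here and was held by 95.5% of windows. The matches did not overlap each other.

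Sequencing depth was 682724 PETs in STAG2-null 1 and 698002 in STAG2-null 2, against 661881 in wild-type 1 and 765017 in wild-type 2. Chromosome 16 as a whole took a larger share of the PETs in STAG2-null cells, 2.99% ± 0.00497, than in wild-type cells, 2.38% ± 0.0247 (SD, n = 2 each), which is a log2 ratio of 0.33. Sparse pairs of chromosome 16 between 20 and 30 Mb, which summed to no more than 4 PETs over all libraries, differed by 0.36 in the same way. Sparse pairs of the PRKCB locus are among them. Comparisons are therefore given per library total and per chromosome 16 total. SMC1 contacts do not measure STAG2 itself, so the loss of STAG2 was not checked here.

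Contacts of the PRKCB locus were more frequent in STAG2-null cells. The locus held 418 and 419 PETs in STAG2-null libraries and 277 and 307 PETs in wild-type libraries. Per 1000000 library PETs this was 606 ± 8.46 in STAG2-null cells and 410 ± 12.2 in wild-type cells (SD, n = 2 each), and the genotypes did not overlap. Of all windows of this length, 30.1% had both STAG2-null libraries above both wild-type libraries, and of those on chromosome 16, 64.5% did.

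Tested beside all 6012 windows of 395 kb with at least 20 PETs, the PRKCB window rose by 0.52 ± 0.10 on the log2 scale (adjusted p = 0.000456, from the quasi-likelihood test of edgeR after Benjamini-Hochberg adjustment). The background of such calls was 5.61% of all windows, with 5.22% called lower, and 25.6% of the 172 windows on chromosome 16, where the median log2 change was 0.30 and 0 windows were called lower. PRKCB ranked 35th by log2 change and 24th by PETs among those 172 windows. Its direction is thus that of most of the chromosome.

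With the chromosome 16 total as library size, the log2 change of the PRKCB window was 0.24 ± 0.10 (adjusted p = 0.0545 with edgeR), no longer past the threshold of 0.05. In that scaling 2.91% of the chromosome 16 windows were called higher and 5.81% lower. Of all windows 0.865% were then called higher and 28.5% lower, since the chromosome itself was set to no change. Per 10000 chromosome 16 PETs the locus held 203 ± 2.49 in STAG2-null cells and 172 ± 3.32 in wild-type cells (SD, n = 2 each), again without overlap. Both STAG2-null libraries were above both wild-type libraries on this scale in 7.72% of all windows and 28.5% of those on chromosome 16. Scaled to the sparse pairs of 20 to 30 Mb, the change was 0.21 ± 0.11 (adjusted p = 0.140 with edgeR). Those sparse pairs include the locus's own, so the locus was partly scaled by itself. Its own sparse pairs held 250 of 1444 and 221 of 1470 of these PETs in STAG2-null libraries. In wild-type libraries they held 175 of 1125 and 178 of 1226. How far the change of the whole chromosome accounts for that of PRKCB was not tested.

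**Figure D1:**
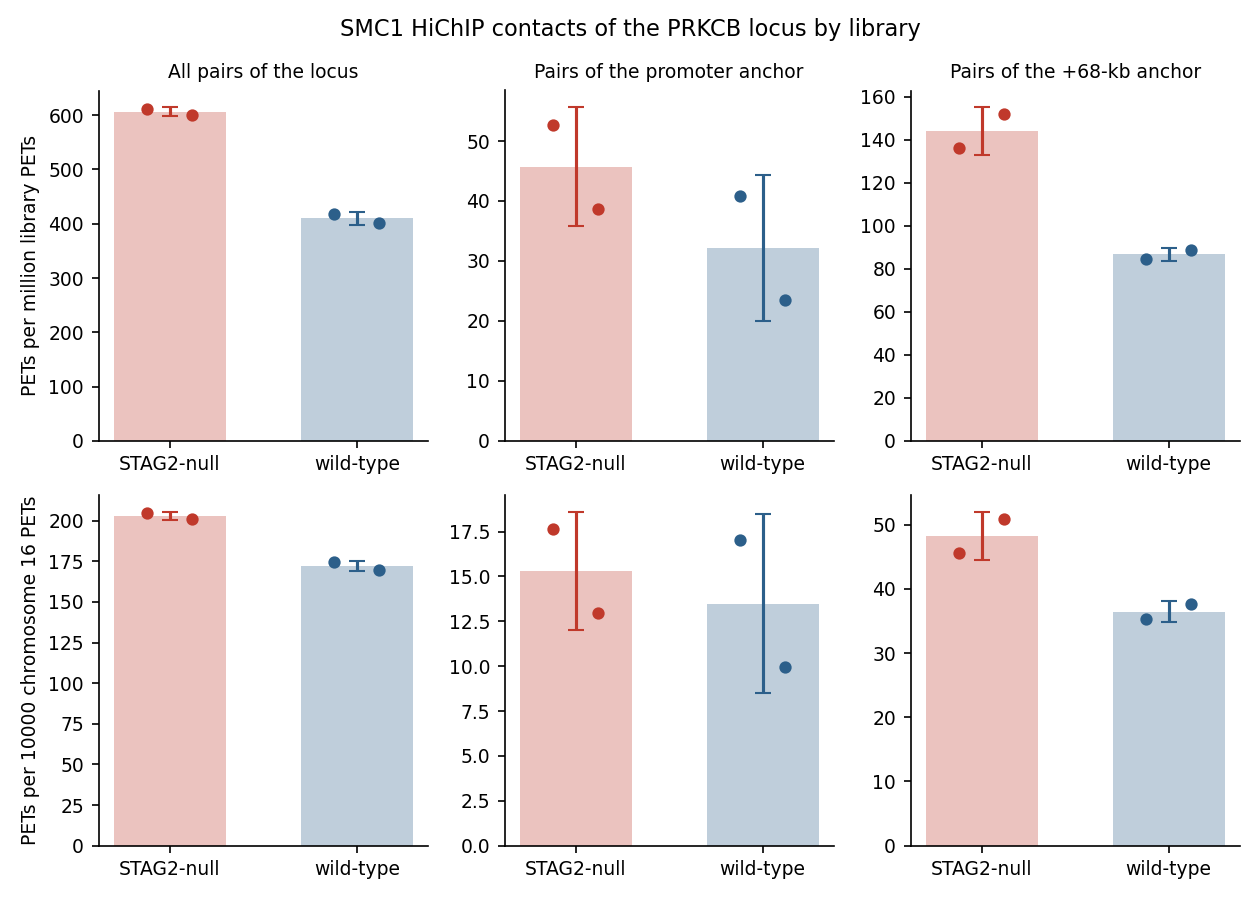
PETs of all pairs of the PRKCB locus, of the promoter anchor and of the anchor 68.1 kb downstream, per 1000000 library PETs (top) and per 10000 chromosome 16 PETs (bottom), for STAG2-null (left) and wild-type (right) libraries; points are libraries, bars are means and error bars are SDs (n = 2). The genotypes separate for the locus and for the 68.1-kb anchor on both scales and overlap at the promoter anchor.

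The windows next to PRKCB on its downstream side moved by like amounts. The log2 change was 0.53 ± 0.10 in the adjoining window, 0.55 ± 0.13 in the next and 0.50 ± 0.11 in the third, with adjusted p-values of 0.000858, 0.00437 and 0.00280 in edgeR's test. Pairs that reach from the locus into these windows count in both. The 4th stood at 0.36 ± 0.16 (adjusted p = 0.150) and did not pass. On the upstream side the 3 nearest windows stood at 0.31 ± 0.11, 0.24 ± 0.18 and 0.36 ± 0.20 and did not pass (adjusted p = 0.0792, 0.446 and 0.264 with edgeR). The 4th and 5th upstream windows did, at 0.41 ± 0.13 and 0.49 ± 0.16 (adjusted p = 0.0426 and 0.0421 with edgeR). Further out, the 9th upstream window stood at 0.70 ± 0.32 and the 10th downstream one at 0.55 ± 0.25. Neither of these 2 passed (adjusted p = 0.176 and 0.159 with edgeR). With the chromosome 16 total as library size, the 4 downstream windows stood at 0.25, 0.26, 0.21 and 0.07, and the 5 upstream ones, from the nearest outwards, at 0.02, -0.05, 0.08, 0.13 and 0.21. The difference between the sides was not tested.

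**Figure D2:**
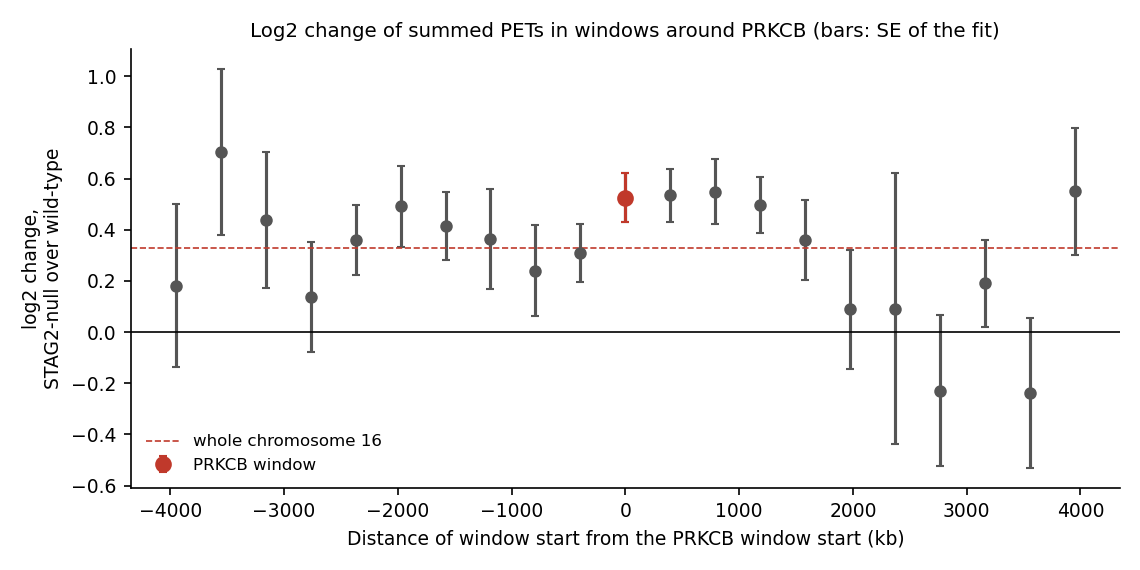
Log2 change of summed PETs, STAG2-null over wild-type, in the 395-kb windows around PRKCB (vertical axis) against distance in kb from the PRKCB window (horizontal axis); bars are standard errors of the edgeR fit and the dashed line is the log2 ratio of the whole chromosome, 0.33. PRKCB and the 3 windows downstream of it stand between 0.50 and 0.55, and the 5th window upstream stands at 0.49. The 9th window upstream stands at 0.70 and the 10th downstream at 0.55, with wider errors.

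The promoter anchor was joined by 42 of the 605 pairs. It held 36 and 27 PETs in STAG2-null libraries and 27 and 18 PETs in wild-type libraries. Per 1000000 library PETs the libraries overlapped between genotypes, with 52.7 and 38.7 in the STAG2-null libraries against 40.8 and 23.5 in the wild-type ones.

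The 20-kb promoter bin stood at a log2 change of 0.53 ± 0.30 (adjusted p = 0.427 in edgeR's test). Of the 44766 bins 0.981% were called higher and 1.43% lower, and of those on chromosome 16, 3.67% were called higher. With the chromosome 16 total it stood at 0.20 ± 0.30 (adjusted p = 0.739 with edgeR). The value rested on single libraries: it was 0.28 without STAG2-null 1, 0.74 without STAG2-null 2, 0.96 without wild-type 1 and 0.15 without wild-type 2, and no adjusted p passed. A change at the promoter was therefore not detectable at this depth.

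The promoter took 7.53% ± 1.53 of the PETs of the locus in STAG2-null cells and 7.81% ± 2.75 in wild-type cells (SD, n = 2 each). That difference of -0.28 percentage points was within the spread between libraries (exact two-sided permutation test, p = 1, where 4 libraries allow no p below 0.333). Pairs of the gene body that do not touch the promoter held 561 ± 1.47 PETs per 1000000 in STAG2-null cells and 378 ± 0.0410 in wild-type cells (SD, n = 2 each). Their log2 ratio of 0.57 had a 95% interval of 0.41 to 0.73, and that of the promoter pairs, 0.53, an interval of -0.04 to 1.12 (exact binomial intervals, for counting error only).

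The most frequent partner of the promoter was the anchor 21.05 kb downstream in the gene body, at chr16:23867947-23870655, with 6 and 5 PETs in STAG2-null libraries and 4 and 1 PETs in wild-type libraries. Its pair with chr16:23811588-23816318, 34.3 kb upstream, held 2 and 5 PETs in STAG2-null libraries and 2 and 2 PETs in wild-type libraries. The other named promoter pairs ran to chr16:23821624, with 2 and 2 PETs in STAG2-null and 2 and 0 PETs in wild-type libraries, and to chr16:23891052, with 1 and 0 PETs in STAG2-null and 2 and 3 PETs in wild-type libraries. The pair with the busiest anchor of the gene body, 68.1 kb away, held only 5 PETs in all, 0 and 4 in STAG2-null libraries and 0 and 1 in wild-type libraries. None of these pairs reached the 20 PETs needed for a test.

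The anchor with the most PETs in the gene body was chr16:23911548-23921192, 68.1 kb downstream of the promoter anchor. It took part in 59 of the 605 pairs and in 22.7% of the PETs of the locus, and ranked 23rd by PETs among the 2589 anchors of chromosome 16. It is also wide, at 9644 bases against 4046 for the next widest anchor of the locus. Per kb of anchor it held 33.5 PETs over the 4 libraries, the 13th of the 24 anchors, against 28.2 at the promoter and 61.4 at the anchor 85.2 kb downstream, which was first.

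The 68.1-kb anchor held 93 and 106 PETs in STAG2-null libraries and 56 and 68 PETs in wild-type libraries. Both STAG2-null libraries stood above both wild-type libraries on each scale. It rose by 0.72 ± 0.19 on the log2 scale (adjusted p = 0.0278, edgeR's quasi-likelihood test over 60425 anchors). It was the 1 anchor called of the 23 tested in the locus, with a background of 0.372% called higher and 0.503% lower among all anchors, and 1.37% higher among those of chromosome 16. The call was not firm: with the chromosome 16 total the change was 0.40 ± 0.19 (adjusted p = 0.196 with edgeR), and without any of the 4 libraries in turn the adjusted p lay between 0.273 and 0.506 (log2 change 0.64 to 0.80).

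Per library total, the rise of the locus was not that of the 68.1-kb anchor alone. Without its 59 pairs the locus held 325 and 313 PETs in STAG2-null libraries and 221 and 239 PETs in wild-type libraries. That was a log2 ratio of 0.52 (95% interval 0.34 to 0.70 for counting error). Per chromosome 16 total the ratio of these pairs was smaller, 0.19 (0.02 to 0.37), with a lower limit close to no change. The share of the locus PETs at this anchor was 23.8% ± 2.16 in STAG2-null cells and 21.2% ± 1.37 in wild-type cells (SD, n = 2 each), and the exact permutation p of 0.333 is the smallest that 4 libraries can give.

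The largest log2 change in the locus stood at chr16:23932775-23934110, 85.2 kb downstream of the promoter anchor. It held 25 and 32 PETs in STAG2-null libraries and 12 and 13 PETs in wild-type libraries, without overlap. The change of 1.22 ± 0.35 had an adjusted p of 0.0523 in edgeR's test and so missed the threshold. It was 0.90 with the chromosome 16 total (adjusted p = 0.102 with edgeR). With pairs of at least 20 kb it was 0.75 ± 0.41 (adjusted p = 0.543 with edgeR), and without each library in turn 1.05 to 1.37. This anchor passed under 3 alternatives: plain library totals, at least 40 PETs and merged anchors. It was picked for the largest change, so its size is likely to be overstated.

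Among the other busy anchors, chr16:23867947-23870655 held 46 and 49 PETs in STAG2-null libraries and 25 and 37 PETs in wild-type libraries (log2 change 0.66 ± 0.25, adjusted p = 0.229). The anchor at chr16:24045033-24049076, 199 kb downstream, held 36 and 48 PETs in STAG2-null libraries and 24 and 38 PETs in wild-type libraries (0.48 ± 0.26, adjusted p = 0.464). The anchor at chr16:24023876-24026359 held 33 and 28 PETs in STAG2-null libraries and 19 and 32 PETs in wild-type libraries (0.30 ± 0.29, adjusted p = 0.742), and its genotypes overlapped. The remaining anchors among the 10 with the most PETs had log2 changes between 0.14 ± 0.33, at chr16:24081532, and 0.56 ± 0.32, at chr16:24056317. None of these passed edgeR's test.

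Over the whole locus the anchors leaned one way. A pair with both ends inside the locus counts at both of its anchors, so the anchors are not separate observations. Of the 23 tested anchors 22 had a log2 change above 0, with a median of 0.48 and a range of -0.02 to 1.22, beside 50.1% of all anchors and 76.1% of those on chromosome 16, whose medians were 0.00127 and 0.32. At an unadjusted p under 0.05 there were 6 higher and 0 lower, against a background of 5.77% higher and 6.16% lower among all anchors and 15.4% higher on chromosome 16. Both STAG2-null libraries stood above both wild-type libraries at 13 of the 24 anchors and below them at 0. Among all anchors 20.9% stood above and 21.3% below, and on chromosome 16 39.7% stood above and 7.6% below.

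Per chromosome 16 total the lean was smaller. The count of anchors with a log2 change above 0 was 16 of 23, with a median of 0.16, against 50.6% of the chromosome 16 anchors. There were 2 anchors higher at an unadjusted p under 0.05, the 68.1-kb and the 85.2-kb ones, where 3.19% of chromosome 16 anchors were, and 0 lower. Both STAG2-null libraries stood above both wild-type libraries at 6 of the 24 anchors, where 18.7% of chromosome 16 anchors did, and below them at 2, where 19.2% did. The 24th anchor, chr16:24127283-24130318, held 18 PETs in all, 7 and 2 in STAG2-null and 4 and 5 in wild-type libraries, and was not tested.

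**Figure D3:**
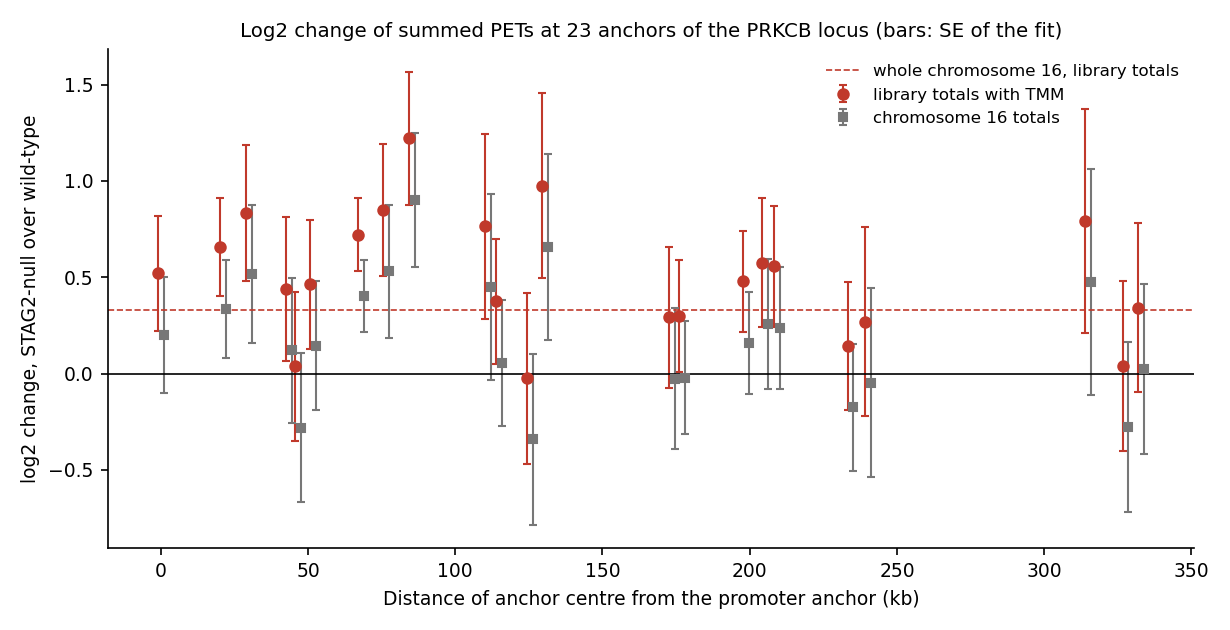
Log2 change of summed PETs, STAG2-null over wild-type, at the 23 tested anchors (vertical axis) by distance in kb from the promoter anchor (horizontal axis), with library totals (circles) and chromosome 16 totals (squares); bars are standard errors of the edgeR fit and the dashed line is the chromosome at 0.33. With library totals 22 of 23 anchors lie above 0, and with chromosome 16 totals 16 of 23 do.

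By side, the ratio between genotypes was largest for contacts with the region downstream of the gene. Pairs joining the locus to anchors downstream of it held 139 and 134 PETs in STAG2-null libraries and 78 and 85 PETs in wild-type libraries, a log2 ratio of 0.79 (95% interval 0.51 to 1.08). Pairs with both ends inside held 161 and 174 PETs in STAG2-null libraries and 112 and 135 PETs in wild-type libraries, a ratio of 0.49 (0.25 to 0.73). Pairs to the upstream side held 118 and 111 PETs in STAG2-null libraries and 87 and 87 PETs in wild-type libraries, a ratio of 0.44 (0.15 to 0.74).

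The downstream side took 32.6% ± 0.900 of the locus PETs in STAG2-null cells and 27.9% ± 0.333 in wild-type cells (SD, n = 2 each). The libraries did not overlap, and the exact permutation p of 0.333 is the smallest possible. This side was the one with the largest ratio of the 3. How often such a share separates in other windows was not counted, so no preference for the downstream side is read from it. Per chromosome 16 total the downstream ratio was 0.46 (0.18 to 0.75), the inside ratio 0.16 (-0.08 to 0.40) and the upstream ratio 0.12 (-0.18 to 0.41). The intervals of the 3 sides overlap, and these intervals cover counting error only.

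By length, pairs of 5 to 20 kb had a log2 ratio of 0.80 (95% interval 0.33 to 1.27) and pairs over 500 kb one of 0.78 (0.40 to 1.17). Pairs of 50 to 100 kb had the lowest ratio, 0.20 (-0.31 to 0.72). On the rest of chromosome 16 the same 3 classes stood at 0.50, 0.38 and 0.21, so these 3 had the same order there. The lowest class differed, since pairs of 100 to 200 kb stood lowest on the rest of the chromosome, at 0.20. At the locus they stood at 0.35 (-0.04 to 0.76). The median distance of a locus pair was 333 kb and the longest pair spanned 1977 kb.

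Single pairs were thinly covered. Of the 605 pairs, 367 (60.7%) held 1 PET and 188 were seen in both genotypes. PETs were in STAG2-null libraries only at 244 pairs and in wild-type libraries only at 173. The shares of such pairs over chromosome 16 and over all pairs are not given here. Chromosome 16 as a whole took more of the PETs in STAG2-null cells, so no gain at PRKCB is read from these counts. The best covered pair seen in STAG2-null libraries only had 7 PETs and that seen in wild-type libraries only 4, too few to show that a contact is absent. Pairs with at least 10 PETs numbered 20, and 12 of these had the 68.1-kb anchor at an end.

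The 20 pairs with at least 10 PETs held 92 and 111 PETs in STAG2-null libraries and 45 and 60 PETs in wild-type libraries, a log2 ratio of 1.0 (95% interval 0.65 to 1.35 for counting error), and such pairs stood at 0.46 on the rest of chromosome 16. The minimum on summed PETs lets pairs in through 1 genotype: 8 of the 20 reached 10 PETs in STAG2-null but not in wild-type libraries, 1 in wild-type but not in STAG2-null libraries, 2 in both and 9 in neither. The ratio and counts over the 20 therefore describe these pairs and support no direction for the locus. Of the 20 pairs, 19 had more PETs per 1000000 in STAG2-null cells, beside 55.8% of all such pairs and 75% of those on chromosome 16. At 11 of the 20 both STAG2-null libraries stood above both wild-type libraries, beside 19.4% of all such pairs and 34.8% on chromosome 16.

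Only 4 pairs reached the 20 PETs set for a test, and 0 were called by edgeR among 11872 pairs, of which 0.0842% were called higher and 0.11% lower (0.368% higher on chromosome 16). None of the 4 passed an unadjusted p of 0.05 either, in edgeR or in DESeq2, where edgeR put 4.84% of all tested pairs higher and 4.75% lower. With a minimum of 10 PETs edgeR also called 0 of the 20 pairs, and 5 passed an unadjusted p of 0.05, all higher and all among the 8 that reached 10 PETs in STAG2-null libraries alone. Of all such pairs 3.35% were then higher and 3.38% lower, and 8.04% higher on chromosome 16. The pair of the 68.1-kb anchor with chr16:23923896-23925573, 8.36 kb further on, held 10 and 10 PETs in STAG2-null libraries and 3 and 8 PETs in wild-type libraries (log2 change 0.80 ± 0.56, adjusted p = 0.681 with edgeR). The 47.1-kb pair of chr16:23867947 with the 68.1-kb anchor held 7 and 9 PETs in STAG2-null libraries and 6 and 7 PETs in wild-type libraries (0.25 ± 0.56). The genotypes did not overlap per 1000000 library PETs at either pair, and the change of the 47.1-kb pair was smaller than its standard error.

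The other tested pairs also ended at the 68.1-kb anchor. Its 46.9-kb pair with chr16:23961206-23965252 held 4 and 9 PETs in STAG2-null libraries and 4 and 4 PETs in wild-type libraries (0.64 ± 0.66). Its 16.3-kb pair with chr16:23899301-23900934 held 8 and 4 PETs in STAG2-null libraries and 3 and 5 PETs in wild-type libraries (0.53 ± 0.68). Neither difference exceeded its standard error.

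The promoter pair with chr16:23867947, given above, was among the 10 pairs with the most PETs, at 16 PETs in all. The remaining untested pairs of the 10 joined the 68.1-kb anchor, anchors near it or the upstream anchor chr16:23811588. The 102-kb pair of chr16:23811588 with the 68.1-kb anchor held 4 and 5 PETs in STAG2-null libraries and 5 and 3 PETs in wild-type libraries, a ratio of 1.16 (95% interval 0.398 to 3.46), and its genotypes overlapped. The 233-kb pair of chr16:23811588 with chr16:24045033 held 2 and 7 PETs in STAG2-null libraries and 2 and 4 PETs in wild-type libraries, a ratio of 1.55 (0.493 to 5.29), again with overlap. Ratios were higher at pairs of the 85.2-kb anchor. The 17.1-kb pair of the 68.1-kb and 85.2-kb anchors held 8 and 6 PETs in STAG2-null libraries and 1 and 2 PETs in wild-type libraries, a ratio of 4.82 (95% interval 1.35 to 26.2). The 8.71-kb pair of chr16:23923896 with chr16:23932775 held 4 and 7 PETs in STAG2-null libraries and 1 and 1 PETs in wild-type libraries, a ratio of 5.68 (1.24 to 52.8). The pair of chr16:23894238 with chr16:23899301, 5.15 kb apart, was the 1 pair of the 20 with fewer PETs per 1000000 in STAG2-null cells, with 2 and 4 PETs against 3 and 7 PETs in wild-type libraries. These intervals are wide and cover counting error only.

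**Figure D4:**
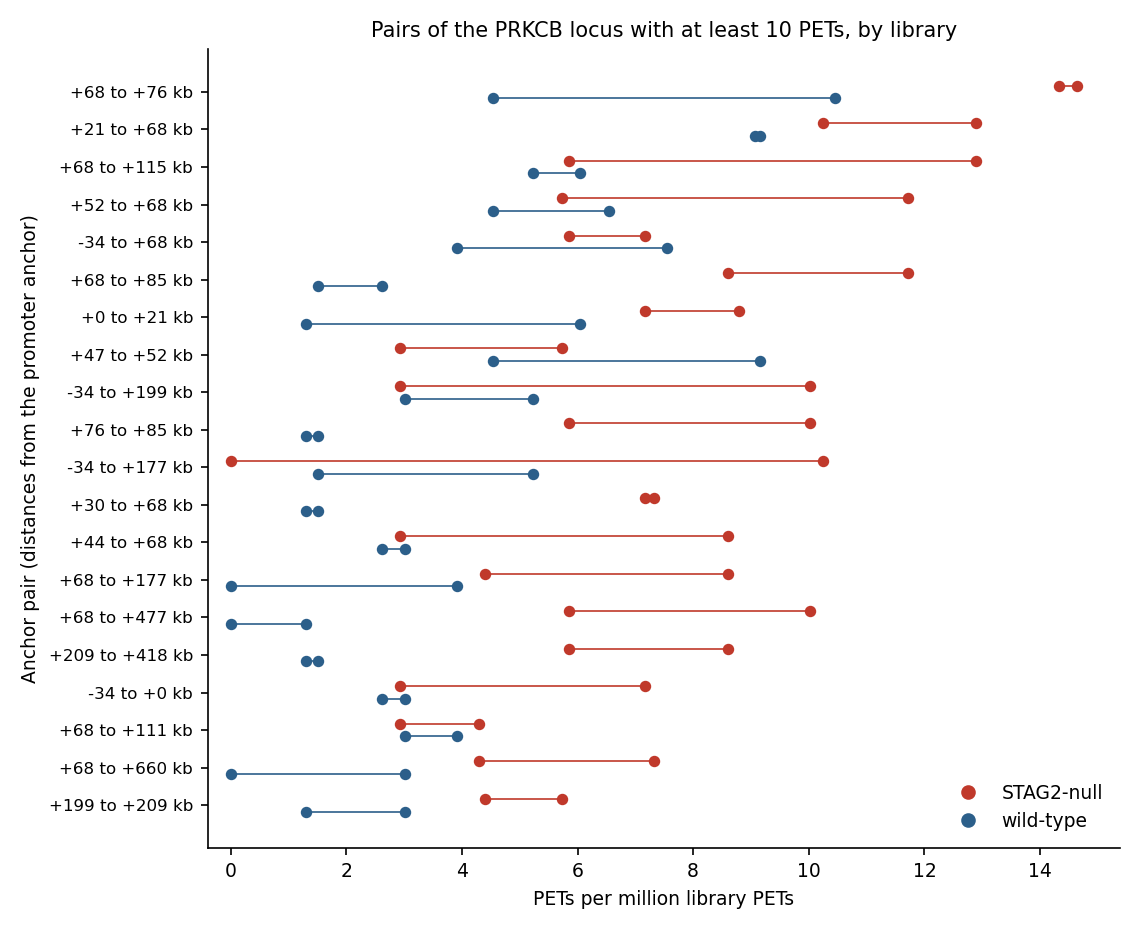
PETs per 1000000 library PETs (horizontal axis) of the 20 PRKCB pairs with at least 10 PETs over the 4 libraries, ordered by summed PETs and named by the distances of their anchors from the promoter anchor; points are libraries, upper red points STAG2-null and lower blue points wild-type. In 11 of the 20 pairs both STAG2-null points lie to the right of both wild-type points.

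**Figure D5:**
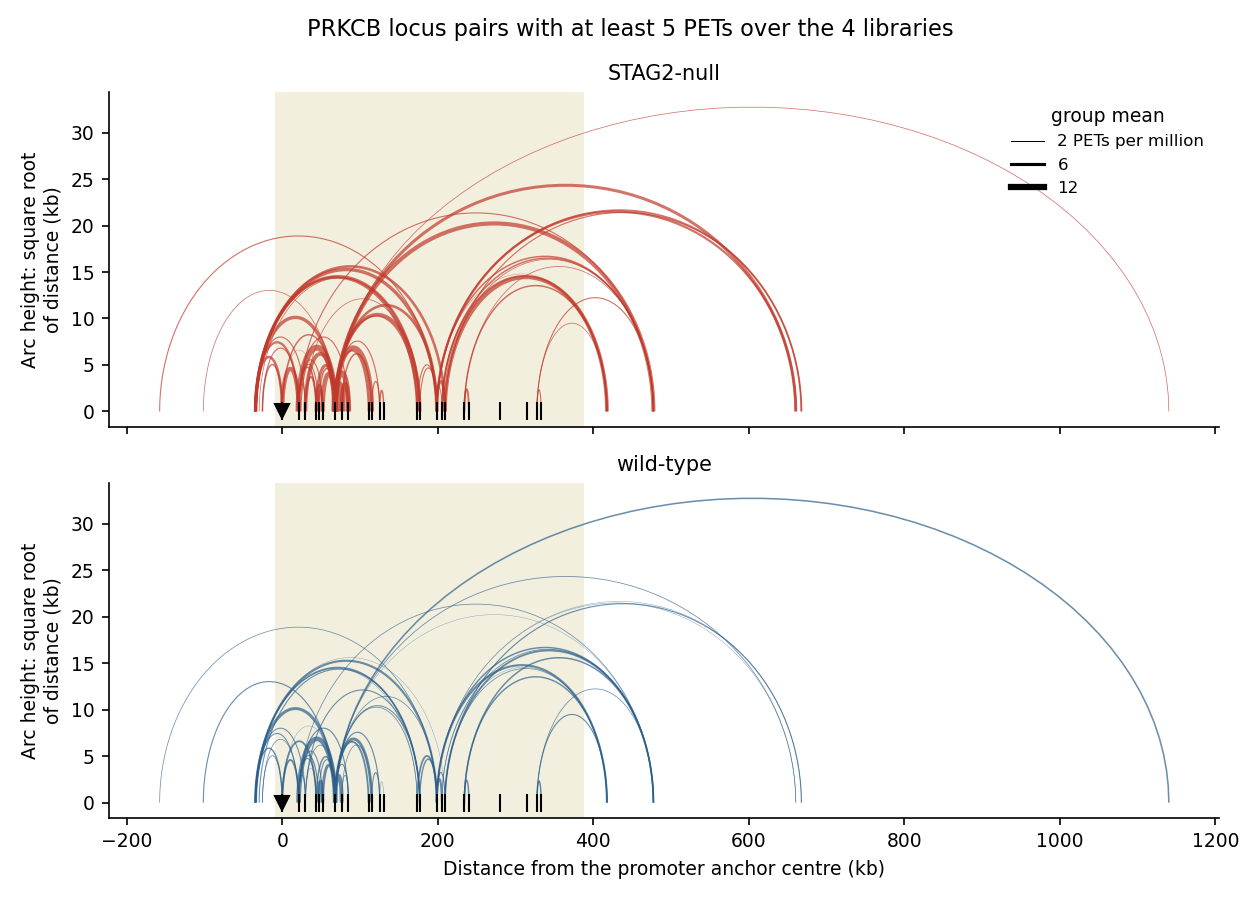
Pairs of the PRKCB locus with at least 5 PETs over the 4 libraries, drawn as arcs for STAG2-null (top) and wild-type (bottom) cells over distance in kb from the promoter anchor (triangle); arc width is the mean PETs per 1000000, arc height the square root of the distance, ticks the anchors and shading the gene interval. The arcs gather at the anchor 68.1 kb downstream, with 59 partners, and few reach the promoter anchor.

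Outside the gene, the partner with the most PETs was chr16:23811588-23816318, 23.7 kb upstream of the interval, which was joined to 22 of the 24 anchors. It held 33 and 41 PETs in STAG2-null libraries and 17 and 24 PETs in wild-type libraries, a log2 ratio of 0.90 per library total. Downstream, chr16:24319951-24331327 held 18 and 29 PETs in STAG2-null libraries and 16 and 18 PETs in wild-type libraries (0.51). Further out, chr16:24505106-24512356, 270 kb beyond the interval, held 24 and 18 PETs in STAG2-null libraries and 12 and 6 PETs in wild-type libraries (1.27).

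The other partners among the 5 with the most PETs were both downstream. The anchor chr16:24262962-24268747 held 15 and 18 PETs in STAG2-null libraries and 6 and 15 PETs in wild-type libraries (0.70). The anchor chr16:24514750-24517127 held 12 and 9 PETs in STAG2-null libraries and 7 and 5 PETs in wild-type libraries (0.85). Per 1000000 library PETs the genotypes came closest at chr16:24319951, with 26.4 in STAG2-null 1 and 24.2 in wild-type 1. Per chromosome 16 total the log2 ratios were 0.57 at chr16:23811588, 0.19 at chr16:24319951 and 0.94 at chr16:24505106. There chr16:24262962 stood at 0.37 and chr16:24514750 at 0.53. On that scale the genotypes overlapped at chr16:24319951, chr16:24262962 and chr16:24514750, and not at the other partners named. These sums over pairs were not tested, and how often sums at other loci separate was not counted.

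Of the 22680 high-confidence loops that the authors deposited, 13 had an anchor in the PRKCB interval. The 68.1-kb anchor formed 8 of them, and the promoter 1, its pair with chr16:23867947. The 13 loops held 148 PETs in STAG2-null libraries and 82 in wild-type libraries, and 12 of these author-selected loops had more PETs per 1000000 in STAG2-null cells, beside 55.1% of all high-confidence loops and 77% of those on chromosome 16.

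The authors' deposited table of 650 differential loops, 2.87% of the high-confidence ones, held 1 loop of the locus. It joined the 68.1-kb anchor to chr16:24319951-24331327 over 409 kb, and the authors' deposited table gives its genes as PRKCB and CACNG3, a gene of the calcium channel gamma subunit family. In the authors' deposited table the log2 change, wild-type over mutant, was -3.16 (p = 0.00219, adjusted p = 0.0620 by independent hypothesis weighting), that is, stronger in the mutant. Its counts were 4 and 7 PETs in STAG2-null libraries and 0 and 1 PETs in wild-type libraries, a ratio of 11.4 with a 95% interval of 1.65 to 489. It did not reach the 20 PETs set for a test, and with a minimum of 10 PETs edgeR gave it an adjusted p of 0.602.

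In the authors' deposited table the 68.1-kb anchor carries flags for FLI1 and H3K27ac, a mark of active enhancers and promoters, and none for CTCF or a promoter. The distal anchor carries flags for CTCF, FLI1 and H3K27ac. Flags for both FLI1 and H3K27ac stood at 155 of the 1134 anchors of that table (13.7%). All 22 differential loops of chromosome 16 in the authors' deposited table were stronger in the mutant, against 350 of all 650 (53.8%), so the direction at PRKCB was also that of its chromosome there.

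Other genes could be placed only through the authors' deposited table of differential loops, which places 251 genes at an anchor and was selected for change. None of the 9 protein kinase C genes was placed. Of 20 genes known to be activated by EWS-FLI1, 4 were placed, with 1 called higher, 0 lower and a median log2 change of 0.57. Among all anchors 0.372% were called higher and 0.503% lower, with a median of 0.00127, but these 4 come from a table of loops selected for change, so nothing is read from their count. CAV1, which encodes a membrane protein of caveolae, had 293 and 342 PETs at its anchor in STAG2-null libraries and 200 and 218 PETs in wild-type libraries (0.64 ± 0.13, adjusted p = 0.00241 in edgeR's test).

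The other genes of that list did not pass. UGT3A2, a glycosyltransferase gene, stood at 0.62 ± 0.24 (adjusted p = 0.215), NR0B1, an orphan nuclear receptor gene, at 0.51 ± 0.30 (adjusted p = 0.516) and ETV6, an ETS repressor gene, at 0.28 ± 0.17 (adjusted p = 0.524). The PRKCB promoter bin stood at 0.53 ± 0.30, an error too wide to place it among these 4 anchors. It is also a 20-kb bin and not an anchor from a selected loop, so no likeness is read from it.

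Among the 241 placed genes with at least 100 PETs, the levels over the 4 libraries that lay nearest to those of the PRKCB promoter bin were those of KHSRP, KMT2D and EPHA2. The measure was the Euclidean distance between log2 normalised PETs centred on each gene's mean. The distances were 0.228, 0.312 and 0.352, where the median was 0.852. The nearest genes lie below the median by selection, and the placed genes come from loops selected for change. The promoter bin held few PETs and its genotypes overlapped, so no likeness to PRKCB is read from these genes. KHSRP, an RNA-binding protein gene, had 67 and 57 PETs in STAG2-null libraries and 46 and 36 PETs in wild-type libraries. KMT2D, a histone H3 methyltransferase gene, had 73 and 59 PETs in STAG2-null libraries and 58 and 30 PETs in wild-type libraries. EPHA2, an ephrin receptor gene, had 139 and 117 PETs in STAG2-null libraries and 103 and 94 PETs in wild-type libraries.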

How the data were processed

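The labels' protocols describe restriction digestion of formaldehyde-fixed chromatin, proximity ligation, shearing by sonication, pull-down of SMC1 and tagmentation with Tn5. The authors deposited, for each library, a count of PETs for each pair of anchors, without normalization. They also deposited a table of high-confidence loops with a p-value per loop and a table of differential loops with a log2 fold change and p-values, per the file headers. HiC-Pro and hg19 come from the submitters' processing notes, which like the labels do not state how loops were called. The column headers of the high-confidence loops name mango, without its settings. The base and sign of the deposited log2 values were checked against the counts (slope 0.959 over 635 loops), and the count columns of the deposited tables equalled the 4 libraries, in order, at all 13 loops of the locus.

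PETs were summed over windows of 395 kb, bins of 20 kb and anchors, or kept per pair, with 5 kb as the smallest pair distance. Features with at least 20 PETs over the 4 libraries were tested for genotype, with no other term, by quasi-likelihood in edgeR 4.0.16 (R 4.3.3) after TMM scaling. Benjamini-Hochberg adjustment ran over all features tested, and the threshold was an adjusted p of 0.05. The errors given with log2 changes are standard errors of the fit. Ratios of summed PETs carry exact 95% binomial intervals (scipy 1.17.1), which cover counting error only. Alternatives were DESeq2 1.42.0, other scalings, other count minimums, length filters, merged anchors, a replicate block and leaving out each library. The edgeR scripts were tested on simulated data, with 200 features changed by 1 on the log2 scale. They recovered 66% of the changed windows, 20.5% of bins, 11.5% of anchors and 3% of pairs. A pair, bin or anchor that was not called is therefore not shown to be unchanged.

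The members, gene lists and tests were chosen with earlier results of these data known. Named were the promoter anchor, the 10 anchors, 10 pairs and 5 outside partners with the most PETs, the 5 top promoter pairs, called features, deposited loops of the locus, and the 3 nearest gene patterns. The anchor at chr16:24127283 was named after its values were seen. The anchor sequences were not read, since no hg19 genome was used here.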

Additional observations from a re-analysis of the deposited data

How the results depend on the processing

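The rise of the PRKCB window kept its direction under all 14 alternatives and passed the threshold in 12; it was 0.24 with the chromosome 16 total and 0.21 with the sparse pairs as library size, not past the threshold, and 0.48 to 0.57 without each library in turn. The count of called anchors in the locus was 1 and moved to 2 with plain library totals, 2 with at least 40 PETs and 2 with anchors merged within 5 kb. It was 0 with the chromosome 16 total, 0 with sparse pairs, 0 with DESeq2, 0 with pairs of at least 20 kb, 0 with midpoints under 500 kb apart, and 0 to 0 without each library in turn; fewer libraries were then in the fit, and the other causes were not tested. With edgeR and the chromosome 16 total 2 anchors passed an unadjusted p under 0.05, and with DESeq2 2 did. Called pairs stayed at 0 under 13 alternatives, with the lowest adjusted p, 0.171, when anchors were merged; at an unadjusted p under 0.05 there were 2 of 13 pairs with merged anchors and 5 of 20 with a minimum of 10 PETs, all higher; with a minimum of 40 PETs no pair of the locus was left to test. The promoter bin did not pass in any of 13 alternatives (0.15 to 0.96 without each library), and DESeq2 gave it no adjusted p. The difference in promoter share was -2.22 to 1.66 percentage points without each library. Replicate numbers in the labels were taken as names only, and deviations of same-numbered libraries correlated at 0.00286 to 0.00612 across features. Counting noise can hold such a correlation near 0, so a batch shared by same-numbered libraries could not be tested in this way. With the replicate number as a block the window stood at 0.52, the promoter bin at 0.51, the anchor count at 1 and the pair count at 0, so the block changed no call. Depth limits single pairs most, since 60.7% of the locus pairs hold 1 PET.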
